A study of Mus musculus with 29 samples.

Results

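All mice carrying the K228E allele of Tbr1 were compared with wild-type mice, with the carriers' treatments pooled. The members of the comparison were all 29 libraries of the series, 21 from heterozygous Tbr1+/K228E mice (HT) and 8 from wild-type mice (WT), chosen by genotype label alone. The series measured RNA of the prefrontal cortex by bulk RNA sequencing in C57BL/6J mice of both sexes at postnatal day 40. Carriers had received vehicle (3 females, 3 males), fluoxetine (4 females, 4 males) or lithium (3 females, 4 males), and WT mice had received vehicle (4 females, 4 males). Fluoxetine is an inhibitor of serotonin reuptake, and lithium is a mood stabiliser that inhibits the kinase GSK3 among other enzymes. Thus 15 of the 21 carriers had received a drug and no WT mouse had. In those arms the drug and the genotype cannot be told apart. Dose, route and duration are not given in the sources used here. The libraries come from whole tissue, and all carry the same batch label. The labels do not say whether mice of a group were littermates, and the p-values measure the spread between these libraries.

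The protein made from Tbr1 belongs to the T-box family of transcription factors and is found in excitatory cortical neurons. It is best known for specifying corticothalamic neurons of layer 6, where it represses layer 5 genes such as Fezf2, and it also binds genes linked to autism. T-box factors bind DNA through their T-box domain, and the lysine altered by K228E lies in that domain. Mutations of human TBR1 are a known cause of autism with intellectual disability.

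The changed codon is shown because it defines the carriers. The codon named by K228E lies, in transcript Tbr1-201, in exon 1 of 6 on the plus strand (GRCm38, chr2:61805389-61805391). The reference sequence around it is given 5′ to 3′ with 24 bases on each side, and capitals mark the lysine codon, read as glutamate in the K228E allele. The allele's own codon was not analysed here.

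Tbr1, reference: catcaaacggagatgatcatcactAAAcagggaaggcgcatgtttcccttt

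Recovered reads summed to between 22.81 M and 31.71 M per library. Xist matched the sex label in every library. The excitatory neuron gene Slc17a7 lay at 32390 to 47980 normalised read counts across the 29 libraries, as a check of the labelled tissue. Genes of neighbouring regions varied far more: the olfactory gene Omp ranged from 6.80 to 514.7, the striatal gene Drd2 from 17.4 to 615.5 and the choroid plexus gene Ttr from 0 to 99.8. In 8 libraries the mean of a striatal or an olfactory marker list lay more than 1 log2 unit above the median library: HT fluoxetine females 1 and 2 and males 1 and 2, HT lithium female 2, WT females 1 and 3 and WT male 3. What the omission of these 8 does to the calls is given below. The rule marks high libraries only. HT lithium males 3 and 1, with olfactory list means of -2.37 and -1.80, stay in, so the omission does not cover all uneven dissection.

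Values are normalised read counts, that is, reads divided by 1 size factor per library. The difference between carriers and WT was estimated with limma on log2(value + 1), with the 3 HT arms weighted equally and sex as an additive term. It is given as a log2 difference ± its standard error (SE), and group levels as mean ± SD. Of 17881 genes tested, 194 were higher and 81 lower in carriers at an adjusted p under 0.05. This is 1.54% of the genes tested, with 1.08% higher and 0.453% lower. The median fold was 1.16 among the genes called higher and 0.844 among those called lower. Among called genes with a mean of at least 50, none reached a 1.5-fold increase and 3 fell by 1.5-fold or more. These 3 were Btg2, Ccn1 and Cebpd. The median over all genes tested was -0.0044, and 48.0% of genes were positive.

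Tbr1 itself (ENSMUSG00000035033, GRCm38, chr2:61802930-61814114, plus strand) was the assigned gene with the smallest p. In WT it had a lowest, median and highest value of 2151, 3035 and 3432. Under HT vehicle these were 3728, 3919 and 4593, under HT fluoxetine 2858, 4275 and 4766, and under HT lithium 3777, 4533 and 4738. Thus 20 of 21 carriers lay above every WT library, and the exception was HT fluoxetine female 1 at 2858. The mean was 4222 ± 463 in carriers (n = 21) and 2866 ± 445 in WT (n = 8), and the log2 difference was 0.57 ± 0.076 (limma, adjusted p = 0.000287). Tbr1 showed 0.59 without HT fluoxetine female 1 and 0.58 without the 8 libraries named above. The arms gave 0.52 ± 0.098 with vehicle, 0.54 ± 0.091 with fluoxetine and 0.64 ± 0.094 with lithium, each against the same 8 WT libraries. These reads come from both alleles, which the table does not separate.

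**Figure D1:**
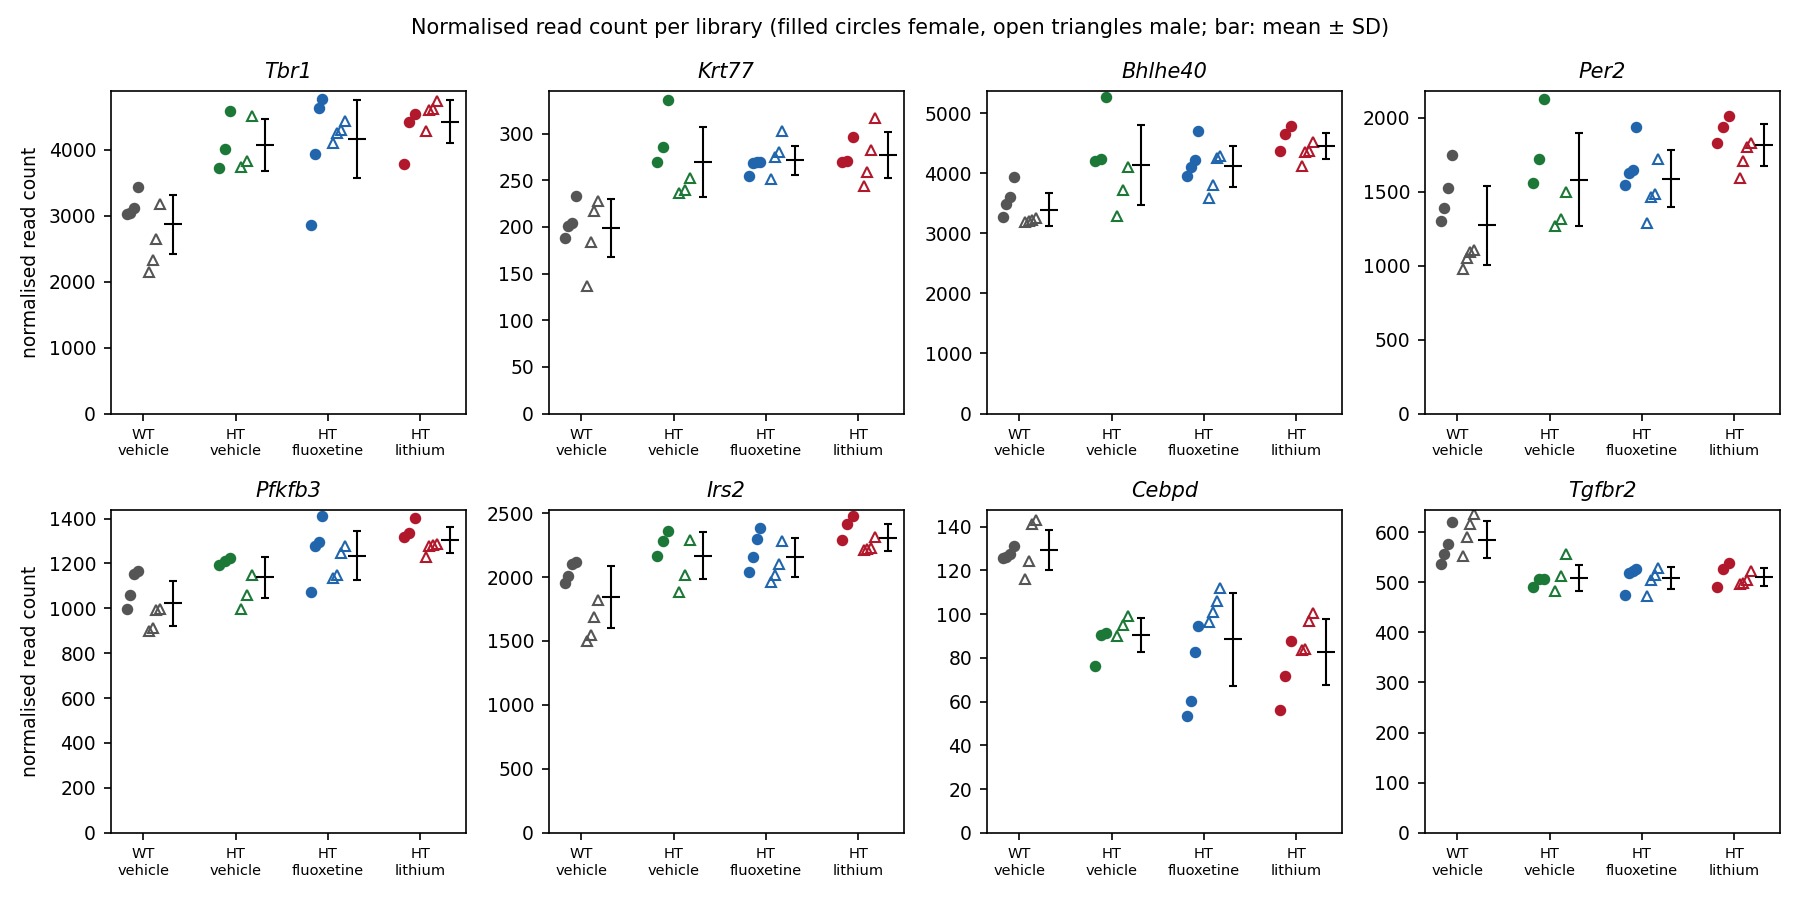
Normalised read count of 8 genes (y axis, from 0) in each of the 29 libraries, by arm (x axis); filled circles are females, open triangles males, and bars give mean ± SD of an arm. Krt77 is higher in all 21 carriers than in all 8 WT libraries and Cebpd lower in all 21, while 1 HT fluoxetine library lies among the WT libraries for Tbr1.

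Among 17881 genes, 2 separated the genotypes without overlap, 1 in each direction (0.00559% of genes tested each). Krt77 (ENSMUSG00000067594, GRCm38, chr15:101858731-101869705, minus strand), which encodes a type II keratin, had a lowest, median and highest value of 136.2, 202.3 and 233.2 in WT and of 235.8, 269.2 and 336.1 in carriers. Its gap between the groups was narrow, and WT male 3 was far below the other WT libraries. The log2 difference of Krt77 was 0.47 ± 0.069 (limma, adjusted p = 0.000469), and the arms gave 0.44, 0.46 and 0.49 for vehicle, fluoxetine and lithium.

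Cebpd (ENSMUSG00000071637, GRCm38, chr16:15887286-15891031, plus strand) encodes a C/EBP transcription factor induced by cytokines and glucocorticoids. It ran from 115.8 to 143.2 in WT, with a median of 126.6, and from 53.6 to 111.9 in carriers, with a median of 90.3. All 21 carriers lay below the lowest WT library. The log2 difference of Cebpd was -0.59 ± 0.089 (limma, adjusted p = 0.000507), and the arms gave -0.51, -0.58 and -0.67. The female estimate was -0.75 and the male estimate -0.44. Cebpd overlaps Spidr on the opposite strand. Overlap was read between whole gene bodies, introns included, and shared exons were not checked. Of the 79 genes named by rule, 27 overlap a gene on the other strand in this way. Since the strand setting of the counting is not given in the sources used here, the values of these 27 are uncertain. They include Bhlhe40, Necab1, Pfkfb3, Plcxd2, Irs2, Ldlrad3, Pard6g, Cep85l, Tshz2, Dbp, Bdnf, Jun and Adra1d.

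The other higher genes of smallest p were Bhlhe40, Necab1, Sox18, Pfkfb3, Plcxd2, Irs2, Smad3 and Per2. Bhlhe40, a clock-controlled repressor, ranged from 3182 to 3947 in WT and from 3282 to 5272 in carriers, and 17 of 21 carriers lay above every WT library. Its log2 difference was 0.32 ± 0.045 (limma, adjusted p = 0.000438). Necab1, a neuronal calcium-binding protein, rose from a mean of 2862 ± 235 to 3465 ± 229, and Plcxd2, a gene of upper-layer neurons, from 3284 ± 211 to 3842 ± 195. For Plcxd2 20 of 21 carriers were above every WT library, and for Necab1 12 of 21 were.

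The insulin receptor substrate Irs2 rose by 0.27 ± 0.041, from a WT range of 1499 to 2120 to a carrier range of 1885 to 2477. Pfkfb3, which makes the activator of the glycolytic enzyme phosphofructokinase, rose by 0.27 ± 0.039, from 898.4 to 1166 in WT to 997.1 to 1414 in carriers. The ranges of both genes overlapped, with 15 of 21 carriers above the highest WT library in each. Smad3, the signal transducer of TGF-beta receptors, rose by 0.27 ± 0.041, and 17 of 21 carriers exceeded every WT library. Sox18, an endothelial transcription factor, rose by 0.45 ± 0.064, with carriers between 133.5 and 227.8 and WT between 106.7 and 172.5.

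Among the lower genes, Tgfbr2, the type II receptor for TGF-beta, lay at 535.5 to 636.5 in WT and at 473.5 to 557.3 in carriers. The log2 difference of Tgfbr2 was -0.20 ± 0.033 (limma, adjusted p = 0.00172), with 19 of 21 carriers below the lowest WT library and -0.20, -0.20 and -0.19 in the 3 arms. Mmp14, a membrane metalloproteinase, fell by 0.30 on the log2 scale, from a mean of 401.6 ± 34.8 to 328.5 ± 41.9. Its arm values were -0.31 with vehicle, -0.16 with fluoxetine and -0.44 with lithium. Slc40a1, the iron exporter ferroportin, fell by 0.27 (391 ± 40.4 to 325 ± 30.4).

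Ldlrad3, a receptor of the low-density lipoprotein receptor family, fell by 0.19, and Pard6g, a cell polarity protein, by 0.25. Gja1, the astrocyte gap junction protein connexin 43, went from 5028 ± 283 to 4583 ± 210, a fall of 0.14 on the log2 scale. Vtn, the matrix protein vitronectin made by pericytes in brain, went from 2176 ± 117 to 1903 ± 142, and Cep85l, a centrosomal protein, from 587.6 ± 54.1 to 497 ± 48.3. The immunoglobulin constant region Ighg2c (-0.43 ± 0.079) is uncertain, since near-identical copies can share reads.

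Tbr1, Bhlhe40, Necab1, Sox18, Pfkfb3, Krt77, Plcxd2, Irs2, Smad3, Per2, Cebpd and Tgfbr2 passed the threshold in every other setting tried, including each omission of 1 library. The other 8 of the 10 lower genes described each missed it in 1 to 4 settings, all of which left out an arm or the 8 libraries named above, or added vessel and meningeal markers to the fit.

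Of the 60 called genes followed through the 51 other settings, 38 missed the threshold without the 8 libraries high in striatal or olfactory markers, with fewer libraries in the fit and no change of direction. The 22 that still passed were the 12 above and Mmp14, Pard6g, Fezf2, Pdgfrb, Tek, Ier5, Chrm4, Gaa, Wnt4 and Fzd7. Without the HT lithium libraries 42 of the 60 missed it, with the vessel and meningeal marker means 30, and on omission of at least 1 single library 23. Sdf2l1 and Fkbp5 missed it in 28 settings, Pou3f1 in 32, Slc12a5 in 26, Otx1 in 24, Numbl in 22 and Tek in 16. Tlr3 and Igfbp2 missed it in 11 settings, Npr3, Dlk2 and Pdia4 in 10 and F3 in 9. Bhlhe41, Csnk1d, Manf, Vgf, Btg2, Ccn1 and Kdr, described below, were not followed through these settings.

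**Figure D2:**
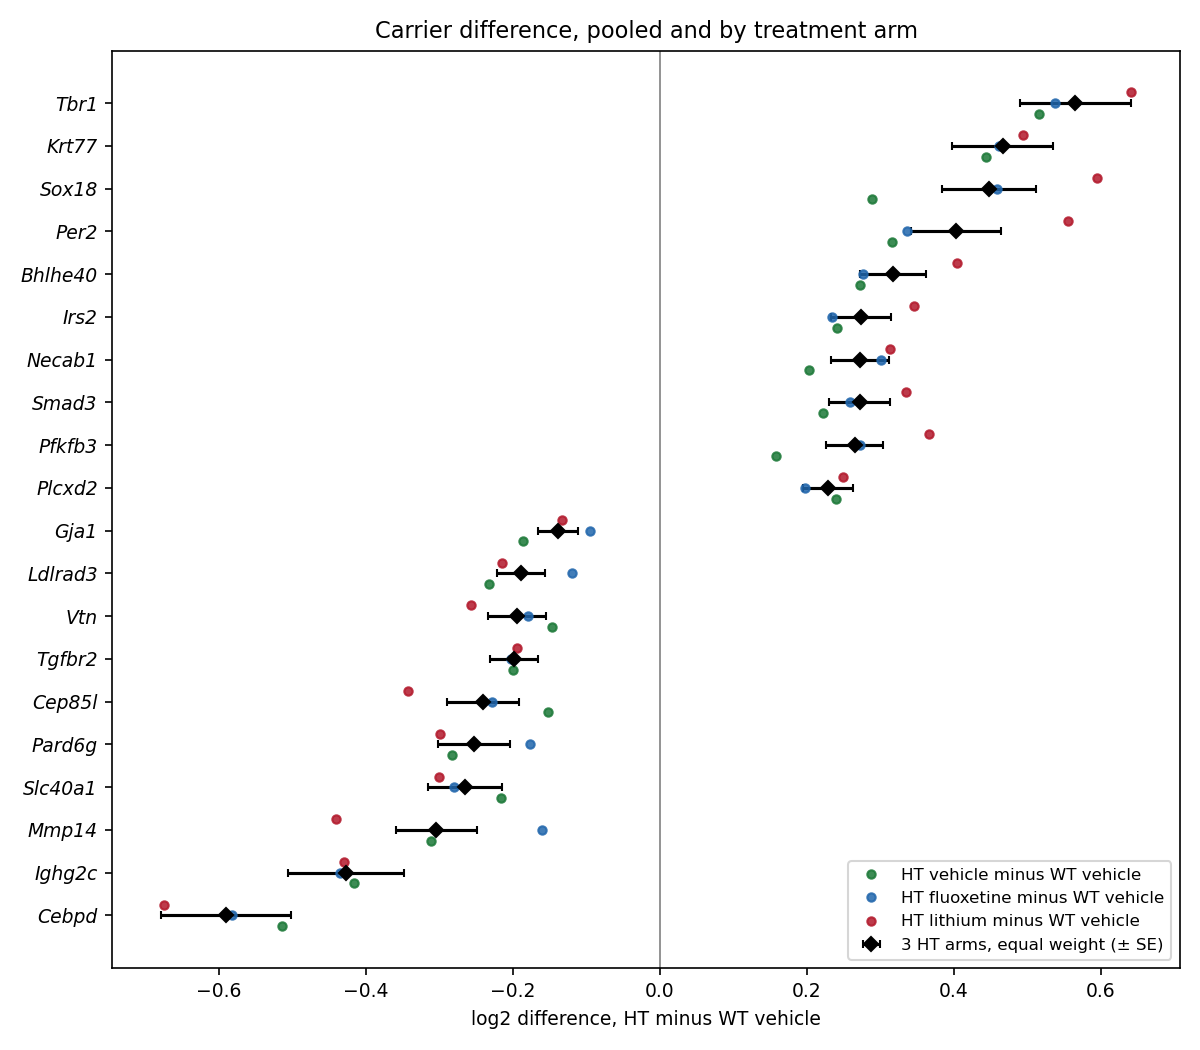
Log2 difference from WT vehicle (x axis) for 20 genes, the 10 of smallest p in each direction (y axis); diamonds give the estimate over the 3 HT arms ± SE and circles each arm. All circles lie on the side of their diamond, and for Mmp14 they run from -0.16 with fluoxetine to -0.44 with lithium.

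The arms were then compared directly, without the WT libraries in the contrast. In the limma F test for any difference among HT vehicle, HT fluoxetine and HT lithium, 0 of 17881 genes passed (background 0%), with 1317 (7.37%) at an unadjusted p under 0.05. On recovered reads edgeR called 0 and DESeq2 called 4. The smallest adjusted p was 0.318, for the ABC transporter Abcc10, whose arm medians were 402.6 with vehicle, 373.1 with fluoxetine and 332.6 with lithium, against 370.2 in WT. Abcc10 overlaps Dlk2 on the opposite strand.

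A missed threshold does not show that the arms were equal. Among the 275 genes called between carriers and WT, 45 (16.4%) had an unadjusted F p under 0.05. The median over the 194 higher genes was 0.18 in the vehicle arm, 0.18 in the fluoxetine arm and 0.25 in the lithium arm. Over the 81 lower genes it was -0.23, -0.23 and -0.27. These genes were chosen by the pooled difference, so the medians are a description. Pfkfb3 showed 0.16 ± 0.051 with vehicle and 0.37 ± 0.049 with lithium, and Per2 0.32 ± 0.079 and 0.56 ± 0.076. Without the HT lithium libraries 33 genes were higher and 6 lower, all of them among the 275. Without the HT vehicle libraries the counts were 160 and 58, and without HT fluoxetine 232 and 96.

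Whether the carrier difference depended on sex was tested in a fit with 1 mean per arm and sex. By limma 0 of 17881 genes passed (background 0%), with 2512 (14.0%) at an unadjusted p under 0.05. The carrier difference itself had 2615 genes at that level, and 894 would be expected by chance. Among the 275 called genes 52 (18.9%) had an unadjusted p under 0.05 for the sex difference. The missed threshold does not show that the sexes were equal. By edgeR 0 passed and by DESeq2 18. Without WT male 4 limma called 400 genes, so this count rests on that library. The smallest adjusted p was 0.185, for Slc2a1, the glucose transporter of brain endothelium. Its carrier difference was -0.20 in females and 0.42 in males, and in WT the 4 females (3488 to 4464) lay above the 4 males (2030 to 2710). Tbr1 showed 0.38 ± 0.099 in females and 0.74 ± 0.098 in males, and the difference of -0.36 ± 0.14 between them did not pass (adjusted p = 0.281).

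Gene lists were described by counts and medians, with no test of a list. Their called counts stand beside 1.54% called over all genes tested. The targets and partners of Tbr1 had 1 of 27 members called (3.70%), Fezf2, and a median of 0.033. Fezf2, the factor that specifies subcortically projecting layer 5 neurons, rose from 615.4 ± 137 to 837.2 ± 119. Its log2 difference was 0.47 ± 0.097 (limma, adjusted p = 0.0105), with 0.39, 0.40 and 0.61 in the vehicle, fluoxetine and lithium arms and 13 of 21 carriers above every WT library. Without the lithium arm it did not pass (adjusted p = 0.169). Among 31 T-box and projection neuron factors Tbr1, Neurod6, Tbx3 and Otx1 were called higher and none lower. Of the 31, 17 were positive and 14 negative, with a median of 0.028. Neurod6, a helix-loop-helix factor of excitatory neurons, rose by 0.34 ± 0.075 and Tbx3, another T-box gene, by 0.31 ± 0.071. Otx1, a factor of deep-layer projection neurons, rose by 0.25 ± 0.063.

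Among 19 layer 6 and subplate markers Tbr1 was the 1 called, and 10 of 19 were negative, with a median of -0.0006. Of 17 layer 5 markers Fezf2, Tshz2 and Pou3f1 rose and Npr3 fell. Tshz2, a zinc finger homeobox gene, went from 880.1 ± 140 to 1072 ± 98.6. Pou3f1, a POU factor, went from 413.0 ± 60.1 to 515.3 ± 70.7. Npr3, a receptor that clears natriuretic peptides, went from 383.9 ± 44.6 to 321.5 ± 32.2. Of 18 upper-layer markers Plcxd2 and Plxnd1 rose. Plxnd1, a semaphorin receptor, went from 3491 ± 331 to 4064 ± 335.

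The circadian clock list had the highest share of called members, 6 of 21 (28.6% against 1.54% of all genes tested). The lists were chosen with earlier results of these data known, so this share is a description and not separate support. All 6 rose, 17 of 21 members were positive, and the median was 0.093. Per2, a core negative regulator of the clock, ran from 977 to 1748 in WT and from 1270 to 2128 in carriers, a log2 difference of 0.40 ± 0.061 (limma, adjusted p = 0.000519). All 21 carriers exceeded the WT median of Per2 and 7 exceeded every WT library. Nr1d1, which encodes the repressor REV-ERB-alpha and overlaps Thra on the opposite strand, rose by 0.22 ± 0.046. Dbp, a clock output factor, rose by 0.19 ± 0.043, with 0.19, 0.18 and 0.18 in the 3 arms.

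Bhlhe41, the paralogue of Bhlhe40, rose by 0.15 ± 0.037, and Csnk1d, a kinase that phosphorylates PER proteins, by 0.10 ± 0.024. The list median was 0.088 in the vehicle arm, 0.086 in the fluoxetine arm and 0.12 in the lithium arm. It stayed between 0.070 and 0.11 in the 51 other settings. The time of day of dissection is not given in the sources used here, and its part in these values was not tested.

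Endoplasmic reticulum and heat shock chaperones had 5 of 30 members higher and 27 of 30 positive, with a median of 0.077. Hspa5, the lumenal chaperone BiP, ran from 5089 to 6232 in WT and from 5229 to 7465 in carriers, a log2 difference of 0.20 ± 0.040 (limma, adjusted p = 0.010). Hyou1, a chaperone of the same compartment, rose by 0.16 ± 0.027, and 12 of 21 carriers were above every WT library for each of the pair. Pdia4, a protein disulphide isomerase, rose by 0.19 ± 0.046, Sdf2l1 by 0.29 ± 0.076 and the secreted factor Manf by 0.13 ± 0.034. Arm medians of the list were 0.031 with vehicle, 0.063 with fluoxetine and 0.12 with lithium. Without the lithium arm Hspa5 did not pass (adjusted p = 0.108). The integrated stress response list had 0 of 24 members called, with a median of 0.021.

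**Figure D3:**
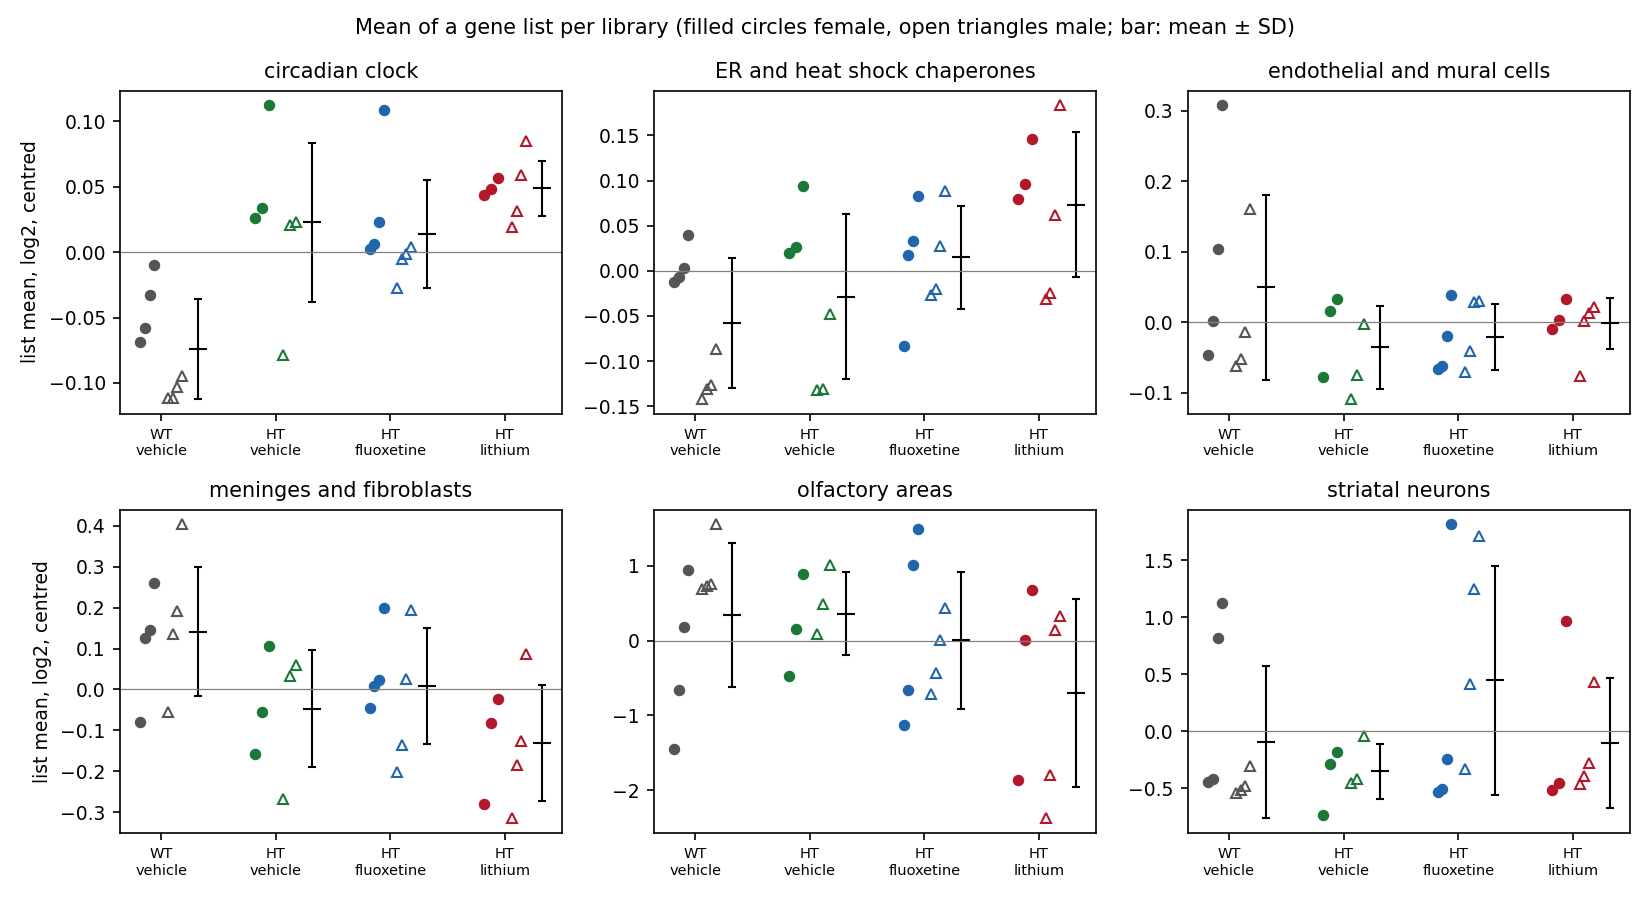
Mean of 6 gene lists in each library (y axis, log2 and centred on each gene's mean over the libraries), by arm (x axis); filled circles are females, open triangles males, and bars give mean ± SD. The clock list is lowest in the WT males, the meningeal list overlaps between genotypes, and the olfactory and striatal lists spread over more than 2 log2 units.

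Activity-regulated genes moved in both directions, 4 up and 3 down of 33, with a median of 0.011. Ier5 rose by 0.26 ± 0.045, and Bdnf, a neurotrophin induced by activity, from 787 ± 68.0 to 928.2 ± 85.1. Klf10 rose by 0.26 ± 0.055 and Vgf, a secreted neuropeptide precursor, by 0.22 ± 0.049. Jun fell from 1550 ± 151 to 1300 ± 137, Btg2 from a mean of 1102 to 672.3 and Ccn1 from 307.5 to 198.6. Of 23 glucocorticoid-responsive genes Fkbp5 and Zbtb16 rose and Cebpd and Ddit4 fell, so this list did not move one way. Zbtb16 changed by 0.39 ± 0.076 and Ddit4, an inhibitor of mTORC1, by -0.30 ± 0.065. Fkbp5, a co-chaperone of the glucocorticoid receptor, changed by 0.32 ± 0.084.

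Few receptor and synaptic genes were called. Of 13 adrenergic and muscarinic receptors Chrm4, the M4 acetylcholine receptor, rose from 504.6 ± 66.6 to 632.6 ± 58.2 and Adra1d, the alpha-1D adrenergic receptor, from 649.1 ± 65.8 to 784.9 ± 103. For Chrm4 18 of 21 carriers exceeded every WT library. Chrm4 is on no marker list but is also a gene of striatal neurons. It did not pass with the vessel and meningeal marker means in the fit (limma, adjusted p = 0.0509). Of 32 synaptic adhesion genes Lrrtm1, a postsynaptic partner of neurexins, rose by 0.19 ± 0.033 and the receptor phosphatase Ptprf by 0.16 ± 0.035. In this list 22 genes were positive, with a median of 0.050. Lrrtm1 overlaps Ctnna2 on the opposite strand. Slc12a5, the neuronal chloride exporter KCC2, was the 1 called gene of 20 in the inhibitory synapse list (0.12 ± 0.030).

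By limma in the fit described, no member was called among 42 glutamate receptor and postsynaptic genes, 31 presynaptic genes, 47 ion channel genes, 17 serotonin genes and 33 chromatin regulators linked to autism. The members with the smallest p were Homer1 (0.15 ± 0.043, adjusted p = 0.0747), Syt7 (0.11 ± 0.031, 0.0793), Cacna1g (0.15 ± 0.041, 0.0509), Maoa (-0.10 ± 0.030, 0.11) and Ankrd11 (0.071 ± 0.032, 0.324). Cacna1g was called in 17 of the 51 other settings, Homer1 in 7, Syt7 in 5 and Maoa in 1. Of the presynaptic genes 25 were positive (median 0.044) and of the ion channel genes 32 (0.034), against 48.0% of all genes tested. With the vessel and meningeal marker means in the fit these medians were 0.0005 and -0.0029. In the glutamate list 24 were positive, in the serotonin list 5 and among the chromatin regulators 16. The channel list did not hold every channel gene: Kcng1, a potassium channel subunit outside it, rose by 0.33 ± 0.067 and was named after its values were seen. No member was called among 62 nuclear genes of oxidative phosphorylation, 13 mitochondrially encoded genes and 77 cytosolic ribosomal proteins. Of the ribosomal proteins 66 were negative, with a median of -0.039, and of the mitochondrially encoded genes 11 were negative, with a median of -0.11.

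Signalling, lysosomal and cholesterol lists held 1 or 2 called genes each. Their called shares ran from 2.70% (lysosome) to 7.69% (Notch), against 1.54% of all genes tested. These calls describe single genes and not the lists. In the TGF-beta list of 29 genes Smad3 was higher and Tgfbr2 lower. In the Wnt list of 37 the ligand gene Wnt4 rose by 0.44 ± 0.079 (563.8 ± 85.8 to 765.8 ± 99.7) and the receptor gene Fzd7 fell by 0.27 on the log2 scale (222 ± 14.2 to 186.1 ± 21.8). Of 26 Notch genes Dlk2 and Numbl rose, and Dlk2 overlaps Abcc10. In the glycolysis and insulin list Pfkfb3 and Irs2 were the called members of 33. Of 37 lysosomal genes Gaa, the acid alpha-glucosidase, rose from 6734 ± 690 to 7955 ± 448, with all 21 carriers above the WT median. Of 29 cholesterol genes Ldlrad3 was the 1 called.

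**Figure D4:**
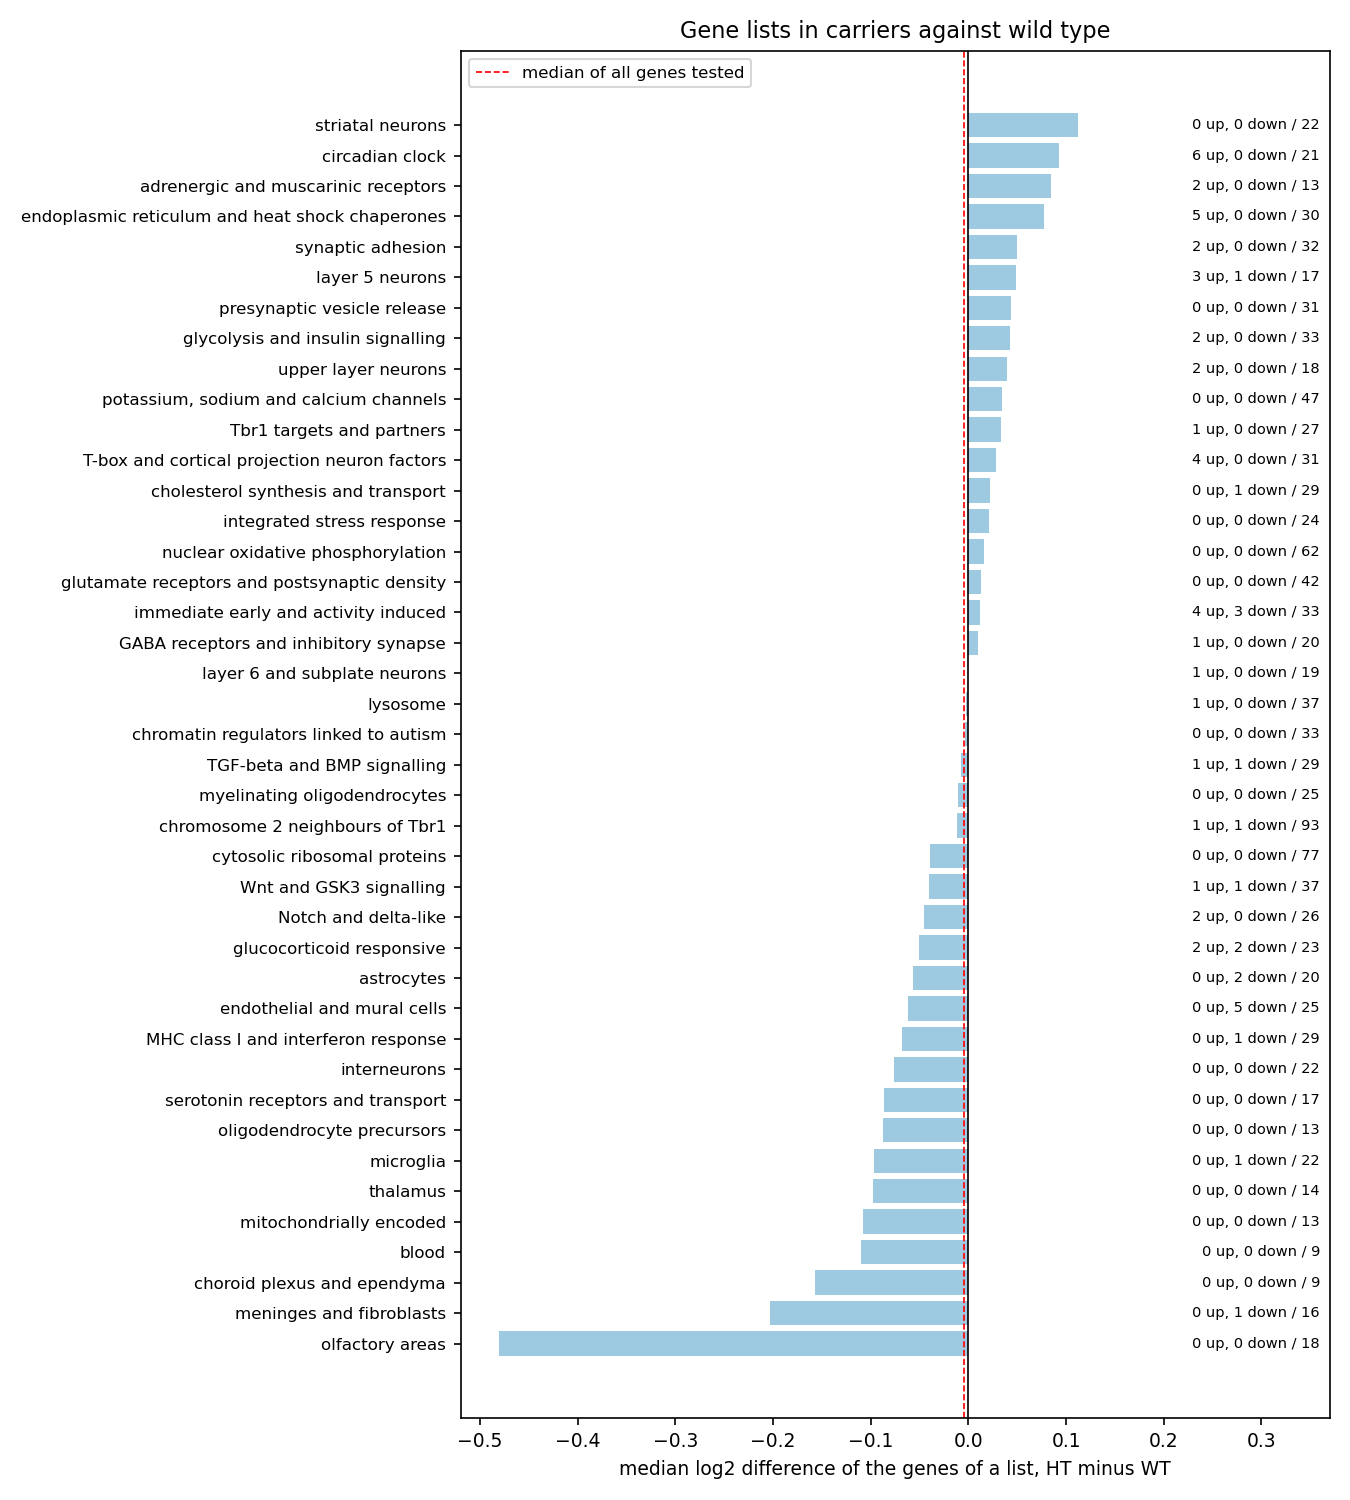
Median log2 difference between carriers and WT (x axis) of the genes of each list (y axis), with the number of members called higher and lower and the number tested at the right; the dashed line is the median of all genes tested. The clock list has 6 of 21 members higher, and the 5 called members of the endothelial and mural list are all lower. The lists were chosen with earlier results of these data known.

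Most genes of vessels, meninges, astrocytes and microglia had negative differences, and few of them passed the test. In bulk tissue fewer cells of a type and less RNA per cell cannot be told apart. Of 25 endothelial and mural genes 5 fell and 22 were negative, with a median of -0.061. Cldn5, a tight junction protein, went from 965.5 ± 110 to 825.7 ± 73.4, Kdr, the receptor for VEGF, from a mean of 584.8 to 476.5, and Tek, the angiopoietin receptor, from 525.9 ± 52.5 to 465.3 ± 30.8. Pdgfrb of pericytes went from 898.4 ± 56.2 to 808.5 ± 51.1. The endothelial factor Sox18, described above, went the other way. The summed level of the 25 genes ran from 22036 to 29134 in WT and from 21461 to 24373 in carriers. Its median was 23624 in WT and 22592, 22965 and 23570 in the vehicle, fluoxetine and lithium arms. The list mean was highest in WT female 4 (0.31), WT male 1 (0.16) and WT female 1 (0.10), above the carrier maximum of 0.038. Its median library lay at -0.0066 in WT and -0.0032 in carriers, so the median library was not lower in carriers.

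All 16 meningeal and fibroblast genes were negative, with a median of -0.20, and 1 was called, Igfbp2 (1308 ± 103 to 1124 ± 125). Their summed level ran from 29193 to 44155 in WT and from 23327 to 37957 in carriers. All 22 microglial genes were negative, with a median of -0.097, and 1 was called, the RNA sensor Tlr3 (-0.21 ± 0.051). Of 20 astrocyte genes Gja1 and F3 fell and 18 were negative. H2-D1, a class I histocompatibility gene with near-identical relatives, was the 1 called of 29 immune genes (-0.15 ± 0.036). With the vessel and meningeal marker means in the fit 102 genes were higher and 26 lower, and 79 and 13 of these were among the genes called above. The marker means contain called genes. The part of vessel and meningeal content in the other values was not tested further.

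Neuronal and oligodendrocyte lists beyond the excitatory layers gave no call: 22 interneuron, 25 myelinating oligodendrocyte, 13 precursor, 14 thalamic, 22 striatal, 18 olfactory, 9 choroid plexus and ependymal and 9 blood genes. Outside the blood list, the smallest p in each belonged to Adarb2 (-0.31 ± 0.12, limma adjusted p = 0.206), Apod (-0.24 ± 0.095, 0.241), Ptprz1 (-0.13 ± 0.050, 0.206), Tcf7l2 (-0.28 ± 0.15, 0.375), Rasd2 (0.31 ± 0.14, 0.284), Barhl2 (-0.71 ± 0.37, 0.379) and Foxj1 (-0.16 ± 0.082, 0.377). The olfactory list had 17 of 18 genes negative and a median of -0.48, with arm medians of -0.020 with vehicle, -0.40 with fluoxetine and -1.17 with lithium. The summed olfactory level ran from 7460 to 36961 in WT and from 6505 to 34242 in carriers, with Ms4a15 at 0 in a library of the series. The striatal list had 16 of 22 genes positive and a median of 0.11, with arm medians of -0.21 with vehicle, 0.51 with fluoxetine and 0.054 with lithium. The striatal sum ran from 14396 to 29386 in WT and from 12850 to 44388 in carriers, with Isl1, Ido1 and Drd3 at 0 in a library. With both marker means in the fit 193 genes were higher and 91 lower, and without the 8 libraries high in them 44 and 16.

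Around Tbr1 on chromosome 2, 93 genes within 10 Mb were tested besides Tbr1 (median -0.012). Dpp4, a peptidase gene 0.53 Mb from Tbr1, rose from 166.4 ± 27.1 to 200.2 ± 18.1, and Fmnl2, a formin gene, fell from 1467 ± 60.9 to 1325 ± 79.8. The 2 called of 93 (2.15%) compare with 1.54% of all genes tested. On the whole chromosome 28 of 1379 genes were called (2.03%).

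Promoters were read for the letters bound by factors named above, in the 250 bases upstream of a gene's start (RefSeq, GRCm38.p6, both strands). The core T-box site AGGTGT was in 12.4% of 137 genes called higher that had a window, 6 of 60 called lower, 11.7% of 12630 genes tested and 11.8% of all 32851 windows. The E-box CACGTG was in 15.3% of the higher genes, 6.67% of the lower and 9.33% of those tested. It was in 5 of 18 clock genes with a window, and among the 3 called clock genes with a window in Bhlhe41 alone. The endoplasmic reticulum stress response element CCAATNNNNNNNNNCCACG was in 7 of 24 chaperone genes with a window and in 0.150% of genes tested, and among the 3 called chaperones with a window it was in Hspa5. A match is a description of these letters. Pieces of 3 promoters are shown, the non-overlapping gene Krt77, the clock gene Bhlhe41 and Hspa5, with the match in capitals: Krt77 at chr15:101869727-101869756 (minus strand), Bhlhe41 at chr6:145865556-145865585 (minus strand) and Hspa5 at chr2:34772020-34772048 (plus strand).

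Krt77, T-box site: ttccagcccagcAGGTGTgtgtatatatag

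Bhlhe41, E-box: tggtacgttccgCACGTGagctgggtgctg

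Hspa5, stress response element: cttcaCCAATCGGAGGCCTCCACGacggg

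The first match lay 39 bases before the RefSeq start of Krt77, 153 before that of Bhlhe41 and 65 before that of Hspa5. In the GENCODE annotation, used for the other coordinates, Hspa5 starts earlier, at chr2:34771970, so its piece lies inside that gene model.

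The called genes also differed in base composition. The median GC content of transcripts was 54.5% for genes called higher, 49.6% for those called lower and 49.4% for all genes tested. The slope of log2 value on GC content varied between libraries, with -0.22 ± 0.63 in WT and 0.082 ± 0.45 in carriers and overlapping ranges. The medians went the other way, 0.12 in WT and 0.080 in carriers. WT males 1, 2 and 3 lay at -1.23, -0.72 and -0.90, below the lowest carrier at -0.71. The other WT libraries were positive. With the slope as a covariate 122 genes were higher and 50 lower, and 108 and 39 of these were among those called above.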

How the data were processed

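The authors deposited a table of normalised signal: per the values, read counts divided by 1 size factor per library. Whole reads were recovered in every library within a tolerance of 0.0001, and were used for edgeR and DESeq2. The submitters' processing notes name Salmon 0.11.2, R 3.6.0, DESeq2 1.19.11 and GRCm38, and the labels' protocols name a stranded poly(A) kit. The annotation release and strand setting are not given in the sources used here. Of 18240 identifiers, 18227 matched GENCODE M21 (GRCm38).

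Genes that reached a value of 10 in 3 or more libraries entered limma 3.58.1 (R 4.3.3) on log2(value + 1), with an intensity trend, 1 mean per arm plus sex (24 residual degrees of freedom), two-sided, Benjamini-Hochberg over 17881 genes, threshold 0.05. The main contrast was the mean of the 3 HT arms minus WT. The pseudocount understates changes of low genes. A second contrast was an F test among HT arms, and the sex contrast used 8 means. Arms share the WT libraries, so arm values are side by side only. The alternatives included edgeR 4.0.16 and DESeq2 1.42.0. The fit was also run on simulated counts. These held no differences between libraries in dissection or base composition, so that run does not speak to such differences.

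Named genes were Tbr1, the 10 higher and 10 lower called genes of smallest p with a mean of at least 50 and an assigned symbol, all genes without overlap, up to 4 called members per list or the 1 of smallest p, and the gene of smallest p in the other tests. Called members of the clock, chaperone, activity and vessel lists beyond these 4, and genes in the closing section, were added after their values were seen. A few genes are not reported here. The comparison, gene lists and rules were chosen with earlier results of these data known.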

Additional observations from a re-analysis of the deposited data

Results flagged for a closer look

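Of 316 combinations of a named gene and an arm, 18 had 1 library set apart from the rest by Dixon's criterion, close to the 1 in 20 that chance gives. Tbr1 was at 2858 in HT fluoxetine female 1, where the next value was 3939. Necab1 was at 3379 and Adra1d at 794.5 in WT male 2, both high. Pdgfrb at 1015 and Fzd7 at 252.3 were high in WT male 1, Adarb2 at 1570 was high in WT male 3, and Bdnf at 931.7 was high in WT female 4. Dbp was high in 3 arms, at 2408 in HT lithium female 2, at 2382 in HT vehicle female 3 and at 2038 in WT female 1. H2-D1 was high at 1234 in HT fluoxetine female 1 and at 1293 in HT vehicle male 2. In HT vehicle male 1 Gja1 was high at 4669 and Slc2a1 low at 2477. Hyou1 was high at 3399 in HT fluoxetine female 4 and Ptprz1 at 7465 in HT lithium male 2. Cep85l was low at 409.4 in HT fluoxetine male 4 and Foxj1 at 92.41 in HT lithium male 3.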

How the results depend on the processing

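All 275 called genes kept their direction in every setting, 260 of them being tested under the filter at 50. From 194 higher and 81 lower, the counts moved to 302 and 144 with DESeq2, 338 and 168 at a threshold of 0.1, 33 and 6 without the HT lithium libraries, 44 and 16 without the 8 libraries high in striatal or olfactory markers, and, in settings chosen after seeing the data, 122 and 50 with the GC slope and 102 and 26 with vessel and meningeal marker means. Leaving out single libraries gave 97 (without WT male 3) to 341 (without HT fluoxetine female 1) higher and 37 (without WT male 1 or WT male 3) to 153 (without HT fluoxetine female 1) lower. Omissions of WT females 2 and 3 and WT males 1 and 2 gave 117, 119, 112 and 126 higher and 43, 48, 37 and 45 lower. The cause was not tested. The treatment F test gave 4 calls with DESeq2. The sex difference gave 18 with DESeq2, 2 with library weights, 1 without the 8 libraries, and 0 to 400 (without WT male 4) without single libraries. By the replicate numbers of the titles, the mean correlation of deviations was -0.0090 over 94 same-numbered pairs and 0.0031 over 273 others. In 11 of 29 libraries the best correlation was with their own number, and no chance level was computed for this count. The numbers in the library names differ from the titles for the HT vehicle females and were not tested. With the replicate block 251 genes were higher and 102 lower. Depth limits genes with few reads.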

Other observations

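Gene families were also read after the values had been seen, so their counts describe these libraries only. They stand beside 1.54% called over all genes tested. Of 6 Sprouty and Spred genes, inhibitors of growth factor signalling to ERK, Spry2 (0.22 ± 0.040) and Spred2 (0.19 ± 0.036) rose, and the median was 0.15. Of 22 dual specificity phosphatases Dusp4 and Dusp26 rose, 14 were positive and the median was 0.037. Among 13 Eph receptors, which guide axons, Epha8 rose from a mean of 220.9 to 304.9 and Ephb2 from 515.2 to 637.0. Of these receptors 9 were positive, with a median of 0.091. Of 9 plexins Plxna1 and Plxnd1 rose, 5 were positive and the median was 0.015. Of 11 frizzled receptor genes including Smo, 10 were negative with a median of -0.13, and Fzd7, Fzd6 and Smo fell. Of 7 retinoid receptor and Cyp26 genes Cyp26b1, which degrades retinoic acid, rose by 0.42 ± 0.071 and Rara, a retinoic acid receptor, by 0.35 ± 0.074. In this family 5 were positive, with a median of 0.073. The salt-inducible kinase Sik2 and its relative Nuak1 rose among 5, and Camk1g, Camkk1 and Camkv rose among 11 calcium/calmodulin kinase genes. Of these kinases 3 of the 5 and 5 of the 11 were positive, with medians of 0.089 and -0.00084. The semaphorin co-receptor Nrp2 fell from a mean of 1483 to 1226.

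The smallest p of all belonged to the unassigned model Gm13736, 25.72 Mb from Tbr1 on chromosome 2. It was at 0 in 6 of 8 WT libraries and reached 16.84 in the others, while all 21 carriers lay between 8.88 and 29.99. Gm48275 was at 0 in 6 of 8 WT and in 3 of 21 carriers, with a carrier median of 25.02. Gm48113 went the other way and was at 0 in 2 of 8 WT and in 17 of 21 carriers. All have few reads.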
